A study of Mus musculus with 2 samples.

Results

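The subject is the fragment ends of repeated sequence in 2 circular chromosome conformation capture (4C-seq) profiles of mouse macrophages. In 4C-seq, cross-linked chromatin is cut, ligated and amplified outward from a chosen viewpoint, so that reads on a restriction fragment end record its ligation to that viewpoint. Both libraries came from primary bone marrow-derived macrophages (BMDMs) of C57BL/6 mice at day 7 of differentiation, labelled UT, and were cross-linked with 2% formaldehyde. They had in common DpnII as the first cutter and, per the labels, Csp61 as the second. One viewpoint lay at the start site of Ccl2, the gene of a CC chemokine that attracts monocytes, and the other at that of Jun, the gene of an AP-1 transcription factor subunit. Each viewpoint had 1 library, the number of mice behind it was not stated, and no test between samples was possible.

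An end was taken as multi-copy when the multiplicity deposited beside its value was 2 or more and its fragment lay at least 5 kb from the viewpoint, at position 81848193 of chromosome 11 for Ccl2 and at position 94721073 of chromosome 4 for Jun (mm9). By this rule 61556 ends of the Ccl2 file were members, out of 486171 that carry a value, and 99558 out of 596305 of the Jun file. Of these, 20267, 23748 and 17541 ends of the Ccl2 file had a multiplicity of 2, of 3 to 10 and above 10, and in the Jun file the numbers were 28108, 42353 and 29097. Ends of multiplicity 1, called unique below, numbered 424567 and 496687 from 5 kb outward. The rule used no read value. A further 104211 possible ends of the Ccl2 chromosome and 171337 of the Jun chromosome carried neither a value nor a multiplicity (17.7% and 22.3%), and the highest multiplicity listed was 50 in both files. Sequences of the ends are not printed, since no mm9 genome was used here, and for the same reason no gene, exon or repeat class is given for them.

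Repeated sequence in mammalian genomes consists mainly of transposable elements, such as LINE and SINE copies, and of duplicated blocks that can carry gene families. A short read from a restriction end inside such a copy aligns equally well to all copies, and a 4C-seq pipeline may leave such ends out or share the reads among the copies.

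Low deposited values of multi-copy ends were near whole numbers of reads less often than those of unique ends. Of values from 0.05 to 10, 39.3% lay within 0.1 of a whole number at multiplicity 2 in the Ccl2 library, 21.6% at 3 to 10 and 19.6% above 10, against 70.3% on unique ends. In the Jun library these shares were 36.4%, 18.1% and 24.3%, against 72.8% on unique ends. The number 0 was included, so values from 0.05 to 0.1 counted as near a whole number. Evenly spread values would in part lie that near too, so the shares are not fractions of whole reads. Values just above 0 reached down to 1.4e-45 estimated reads. Within the multiplicity above 10, 54.9% of Ccl2 ends and 50.6% of Jun ends held a value above 0, most of them below 0.5 reads (48.8% and 45.5% of the ends), while on unique ends 2.84% and 3.02% held one. A value was counted as a read in what follows when it rounded to at least 1.

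With that threshold, 3.90% of the multi-copy ends of Ccl2 had a read (2403 ends, exact binomial 95% interval 3.75 to 4.06%) and 3.14% of those of Jun (3128 ends, 3.03 to 3.25%). Over all ends from 5 kb outward the shares were 2.17% and 2.12%, and over unique ends 1.92% and 1.91%. Multi-copy ends held 84835 reads of Ccl2 (exact Poisson 95% interval 84265 to 85408), which were 8.60% of the reads from 5 kb outward on 12.7% of the ends. For Jun they held 100608 reads (99987 to 101232), 8.39% of the reads on 16.7% of the ends. The mean was 1.38 reads per multi-copy end against 2.12 per unique end for Ccl2, and 1.01 against 2.21 for Jun. So, pooled over all distances from 5 kb outward, multi-copy ends had a read more often, but held fewer reads each, than unique ends. They also lay near the viewpoint less often, with 1.23% of them within 1 Mb for Ccl2 and 0.767% for Jun. Of unique ends 1.98% and 1.44% lay there. All intervals here cover counting error within 1 library. Ends of one repeat share their sequence and the protocol names no molecular identifiers, so neither ends nor reads are independent.

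The contrast with unique ends depended on distance. From 20 to 100 kb, 13 of 16, 13 of 17 and 12 of 15 Ccl2 ends of multiplicity 2, 3 to 10 and above 10 had a read, in all 79.2% of 48 (65.0 to 89.5%), against 79.9% of 661 unique ends. For Jun the numbers were 15 of 16, 14 of 16 and 10 of 12, in all 88.6% of 44 (75.4 to 96.2%), against 88.7% of 585 unique ends. The intervals of all 6 classes held the unique share, and with so few ends they were wide, that of Jun ends of multiplicity 2 reaching over 69.8 to 99.8%. No difference was detectable at this number of ends, which does not show that they were alike.

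Beyond 1 Mb the share was higher the higher the multiplicity, in both libraries. For Ccl2 it was 2.18% at multiplicity 2 (interval 1.98 to 2.39%), 3.33% at 3 to 10 (3.11 to 3.57%) and 5.81% above 10 (5.47 to 6.17%), against 1.54% of unique ends (1.51 to 1.58%). For Jun it was 1.52% (1.38 to 1.67%), 2.44% (2.29 to 2.59%) and 4.69% (4.45 to 4.94%), against 1.19% (1.16 to 1.22%). The background over all ends there was 1.81% and 1.47%. The ratio of the share above multiplicity 10 to the unique share was 3.76 for Ccl2 (Katz log interval 3.53 to 4.01) and 3.94 for Jun (3.72 to 4.18). In finer steps the share reached 7.64% at multiplicity 31 to 40 and 7.54% at 41 to 50 for Ccl2, and 5.46% and 5.87% for Jun. The same order of classes held from 1 to 10 Mb, with 3.30%, 5.76% and 7.46% against 2.44% for Ccl2 and 2.77%, 4.51% and 8.25% against 1.92% for Jun.

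**Figure D1:**
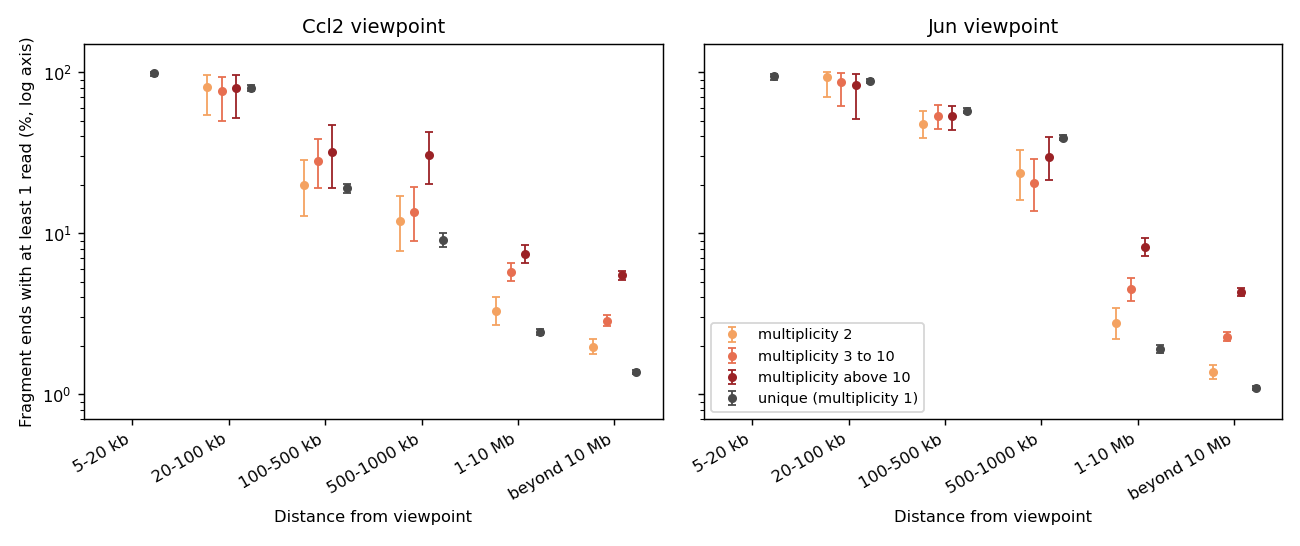
Percentage of fragment ends with at least 1 read (log axis) by distance from the viewpoint, for multiplicity 2, 3 to 10, above 10 and unique ends; points are shares over classes of at least 10 ends, bars exact binomial 95% intervals. From 20 to 100 kb the classes overlap near 80 to 90%, and beyond 10 Mb the share increases with multiplicity, up to 5.49% against 1.38% of unique ends for Ccl2.

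Far multi-copy ends with a read held fewer reads than far unique ones. Beyond 1 Mb, an end with a read held a median of 24 reads at multiplicity 2, 9 at 3 to 10 and 4 above 10 in the Ccl2 library, against 45 on unique ends. In the Jun library the medians were 17, 3 and 2, against 28. The share of ends with at least 50 reads did not increase with multiplicity. Above multiplicity 10 it was 0.448% (0.354 to 0.559%) for Ccl2, against 0.735% of unique ends (0.710 to 0.762%), and 0.0901% (0.0589 to 0.132%) for Jun, against 0.382% (0.365 to 0.399%). At multiplicity 2 it was 0.737% (0.623 to 0.866%) for Ccl2 and 0.312% (0.250 to 0.385%) for Jun, and both intervals held the unique value. For multiplicity 3 to 10 the libraries stood apart, with 0.738% (0.632 to 0.855%) for Ccl2 and 0.159% (0.123 to 0.202%) for Jun.

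Averaged over all ends beyond 1 Mb, multi-copy ends held fewer reads than unique ones, but not in each range of distance. Over all ends beyond 1 Mb the mean per end was 1.01, 1.04 and 0.839 reads for multiplicity 2, 3 to 10 and above 10 in the Ccl2 library, against 1.06 on unique ends. In the Jun library it was 0.439, 0.308 and 0.345, against 0.486. The ratio of the means over all multi-copy ends was 0.915 for Ccl2 and 0.732 for Jun. From 1 to 10 Mb alone it was 1.13 and 1.02, with means of 1.95, 2.40 and 1.38 reads against 1.74 on unique ends for Ccl2 and of 0.915, 0.795 and 0.856 against 0.835 for Jun. In that range the share of ends with at least 50 reads, at multiplicity 3 to 10, was 1.55 times the unique share for Ccl2 (1.21 to 1.98) and 0.752 times for Jun (0.457 to 1.24), and above multiplicity 10 it was 0.693 times (0.458 to 1.047) and 0.435 times (0.216 to 0.874). Ends below 10 reads supplied 12.9% of the Ccl2 reads and 28.9% of the Jun reads above multiplicity 10, against 1.12% and 2.38% on unique ends.

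**Figure D2:**
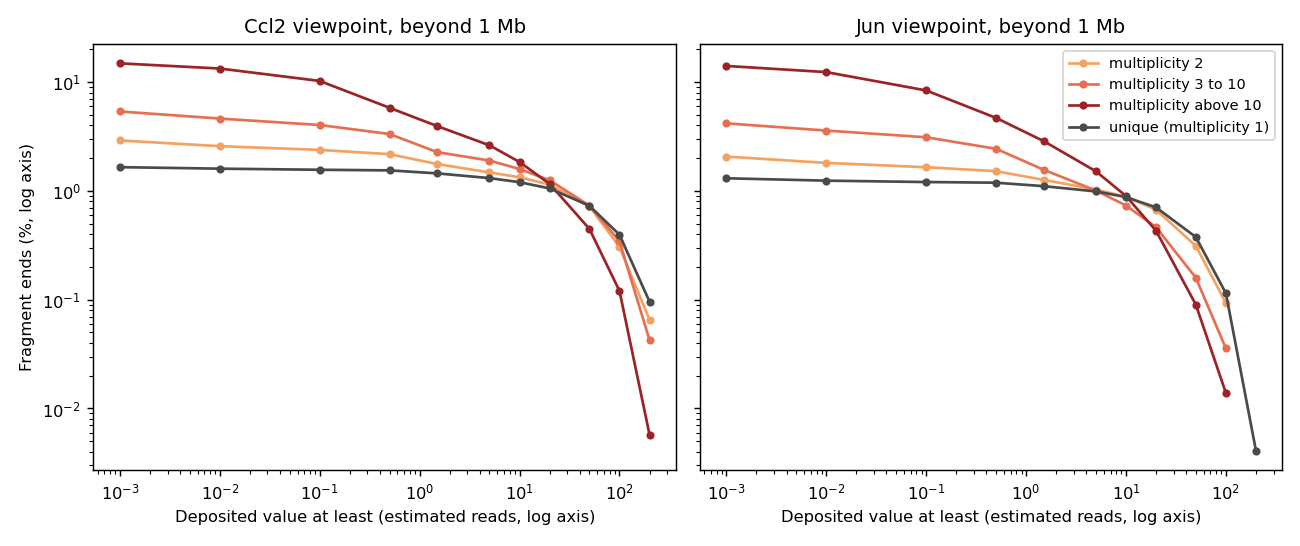
Percentage of fragment ends beyond 1 Mb (log axis) whose deposited value reaches the threshold on the x axis (estimated reads, log axis), for multiplicity 2, 3 to 10, above 10 and unique ends. The curve above multiplicity 10 starts highest and ends lowest: for unrounded values of at least 50 it stands at 0.448% against 0.730% of unique ends for Ccl2, and at 0.0901% against 0.377% for Jun.

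Within 1 Mb, 23.2% of 759 multi-copy ends of Ccl2 had a read (20.2 to 26.4%), against 20.5% of unique ends (19.6 to 21.3%), and 42.4% of 764 of Jun (38.9 to 46.0%), against 51.4% (50.2 to 52.5%), with 20.7% and 50.5% over all ends. Multi-copy ends traced the contact zones that unique ends show on either side of each promoter. For Jun, 94.3% of 159 multi-copy ends that lay 100 to 500 kb away on the higher side had a read (89.5 to 97.4%), against 91.5% of 1500 unique ends (90.0 to 92.9%). On the lower side 20.3% of 217 did (15.1 to 26.2%), against 16.5% of 1220 (14.4 to 18.7%). The higher side held 95.7% of the multi-copy reads of that range, against 97.0% of the unique reads. From 500 to 750 kb, 94.1% of 34 multi-copy ends of the higher side had a read (80.3 to 99.3%), against 85.8% of 999 unique ends, and from 750 to 1000 kb 48.1% of 77 (36.5 to 59.7%), against 65.9% of 809 (62.5 to 69.1%). In this outermost stretch the multi-copy interval lay wholly below the unique one, but the ends were placed differently within it. The 50 kb bins starting at 900 and 950 kb held 23 and 20 of the 77 multi-copy ends. They held 125 and 129 of the 809 unique ends. Of these unique ends 34.4% and 33.3% had a read, against 84.8% in the bin starting at 750 kb. Whether the gap remains with unique ends matched by position within this stretch was not tested.

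For Ccl2, 60.0% of 50 multi-copy ends from 100 to 250 kb on the higher side were covered (45.2 to 73.6%), against 47.4% of 652 unique ends (43.5 to 51.3%), and on the lower side 21.1% of 38 (9.55 to 37.3%), against 21.3% of 724 (18.3 to 24.4%). From 250 to 500 kb the multi-copy shares were 13.4% of 67 ends on the higher side and 16.3% of 92 on the lower side, against 9.94% and 9.54% of unique ends. From 500 to 1000 kb they were 19.3% of 332 (15.2 to 23.9%) on the higher side, against 16.1% (14.5 to 17.8%), and 5.51% of 127 (2.24 to 11.03%) on the lower side, against 2.44% (1.82 to 3.20%). By these shares the side with more contact at these distances was the same for both kinds of end, except from 250 to 500 kb. There neither kind of end differed in its share between sides beyond its interval. Reads from 20 to 100 kb went the other way: 28.8% of the multi-copy reads of Ccl2 lay on the lower side, against 59.2% of the unique reads, with 24 multi-copy ends on either side. From 250 to 500 kb 87.5% of the multi-copy reads lay on the lower side (1061 against 152), against 52.0% of the unique reads. These multi-copy reads stood on 15 ends of the lower and 9 of the higher side. Ends above multiplicity 10 had the highest Ccl2 share within 1 Mb, 37.0% of 135 (28.9 to 45.8%). From 500 to 1000 kb, pooled over both sides, it was 30.6% of 72 (20.2 to 42.5%), against 9.04% of unique ends there (8.17 to 9.97%). By side it was 39.2% of 51 on the higher side (25.8 to 53.9%), against 16.1% of 1950 unique ends. On the lower side it was 9.52% of 21 (1.17 to 30.4%), against 2.44% of 2087. For Jun the corresponding share within 1 Mb was 44.8% of 248 (38.5 to 51.2%), against 51.4% of unique ends. By finer steps it was 44.2% of 86 at multiplicity 11 to 20, 28.2% of 71 at 21 to 30, 41.5% of 41 at 31 to 40 and 72.0% of 50 at 41 to 50 (57.5 to 83.8%), with no steady order.

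**Figure D3:**
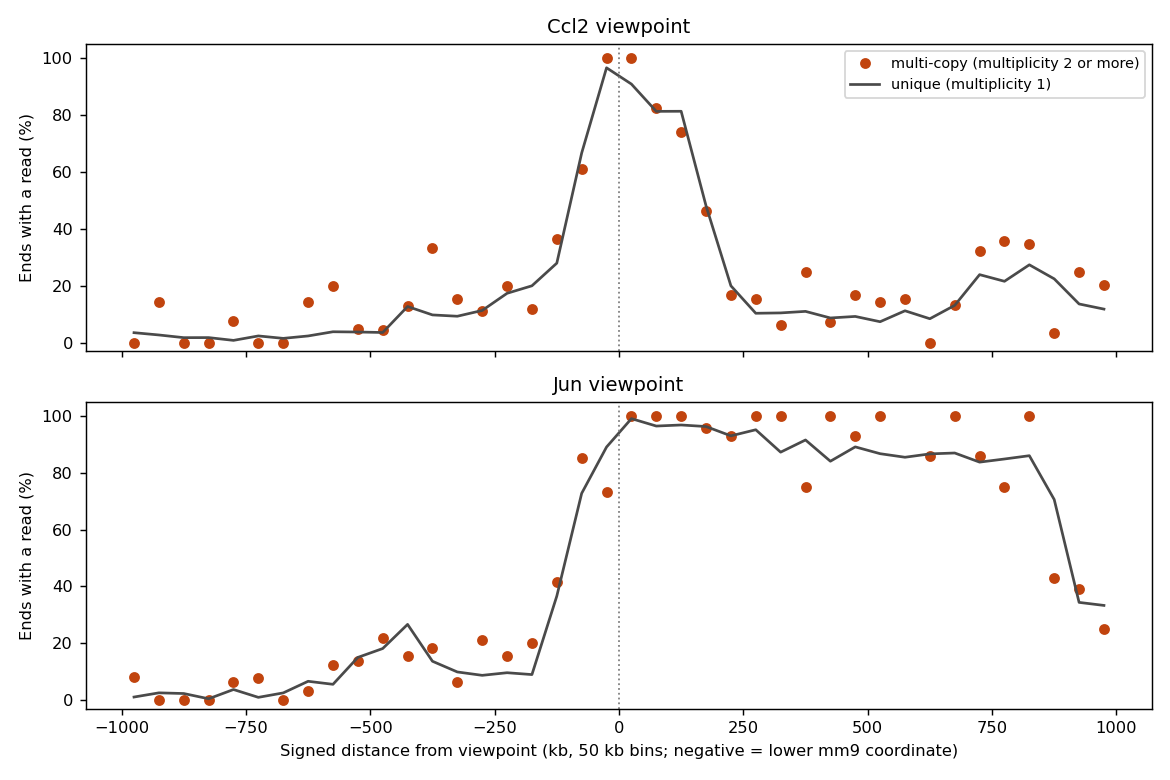
Percentage of fragment ends with a read in bins of 50 kb by signed distance from the viewpoint (kb, negative towards lower mm9 coordinates), multi-copy ends as points and unique ends as a line, for bins of at least 5 ends. The points mostly run along the line on both sides, including the one-sided zone of Jun, where 94.3% of multi-copy ends and 91.5% of unique ends lying 100 to 500 kb away had a read. Among the departures is the Ccl2 bin starting at 850 kb, with 3.39% of 59 multi-copy ends against 22.4% of 196 unique ends. In the bin starting at 950 kb the order is the opposite, with 20.3% of 123 against 11.8% of 127.

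Pooled over both sides, the comparison from 20 to 1000 kb came out differently for the viewpoints, and multi-copy ends were spread over the sides differently from unique ends. For Jun 467 of 753 multi-copy ends lay on the lower, little contacted side, against 3432 of 7038 unique ends. The pooled shares were 41.8% and 50.6%, a ratio of 0.827 (0.758 to 0.902). Within sides they were 17.1% against 14.8% on the lower side (multi-copy interval 13.8 to 20.9%) and 82.2% against 84.7% on the higher side (77.2 to 86.4%), and with unique ends matched by distance and side the ratio was 1.01. For Ccl2 the pooled shares were 22.7% and 19.0%, a ratio of 1.19 (1.04 to 1.37), and the matched ratio was 1.10.

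The share of multi-copy ends with a read tracked that of the unique ends around them. Ends within 1 Mb were grouped by the share of unique ends with a read within 10 kb on either side, their own fragment left out. Where more than 80% of those neighbours had a read, 93.3% of 238 multi-copy ends of Jun did too (89.3 to 96.1%), against 90.1% of unique ends (89.0 to 91.1%), and 85.0% of 40 of Ccl2 (70.2 to 94.3%), against 91.6% (89.3 to 93.6%). At above 40 to 80% of neighbours the shares were 60.3% and 68.0% for Jun and 71.4% and 62.7% for Ccl2, multi-copy before unique. At above 0 to 10% they were 7.30% (3.95 to 12.2%) and 4.99% for Jun and 11.3% (7.58 to 16.01%) and 5.67% (4.91 to 6.52%) for Ccl2. For all multi-copy ends of Ccl2 together the intervals met in the other classes but not in this one. By multiplicity, Ccl2 ends above 10 stood apart from unique ends both here, with 20.5% of 44 (9.80 to 35.3%), and at above 10 to 40% of neighbours, with 34.9% of 63 (23.3 to 48.0%) against 17.1% (15.9 to 18.4%). At above 10 to 40% the Jun ends above multiplicity 10 had 20.3% of 74 (11.8 to 31.2%) against 20.4%. Among Ccl2 ends with no covered neighbour, 0 of 26 multi-copy ends had a read, which allows a share of up to 11.5% by a limit of 3 counts and of 13.2% by the exact binomial interval, against 1.26% of 398 unique ends.

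For Jun, mean reads of multi-copy ends lay on either side of the unique mean where more than 80% of neighbours had a read. There they were lower at higher multiplicity, but not at above 40 to 80% of neighbours, nor by distance on the higher side. Where more than 80% of neighbours had a read, the mean was 266 reads per end at multiplicity 2, 246 at 3 to 10 and 227 above 10, against 244 on unique ends. Of these ends, 90.9% of 77, 96.2% of 78 and 92.8% of 83 had a read. The corresponding Ccl2 means were 352, 251 and 162 reads over 15, 16 and 9 ends, against 530 on unique ends. At above 40 to 80% of neighbours the Jun means were 52.1, 92.6 and 80.9 reads over 35, 23 and 15 ends. Unique ends there had a mean of 84.2. On the higher side of Jun the means, in the same order, were 273, 223 and 268 reads from 100 to 500 kb, against 244 on unique ends. From 500 to 1000 kb there they were 97.5, 58.2 and 67.8 reads, against 129. In that range 77 of 111 multi-copy ends lay beyond 750 kb, against 809 of 1808 unique ends.

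The 10 multi-copy ends with the most reads lay near the promoters in both libraries, all of them on the higher side. They stood 11.02 to 131 kb from the Ccl2 viewpoint and held 608 to 1320 reads each, 11.2% of all multi-copy reads. For Jun they stood 10.7 to 173 kb away and held 1019 to 2130 reads, 14.3% of the total. The 10 highest unique ends of Ccl2, at 4390 to 6735 reads and within 28.4 kb, included only 1 on the higher side, while all 10 of Jun, at 2419 to 4480 reads, were on it. The multi-copy ends named next were chosen by their reads, and the values describe them only.

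The Jun end with the most reads, with its fragment centre at 94878305 of chromosome 4 and 157 kb from the viewpoint, had a multiplicity of 15 and 2130 reads. The unique end of its own 278 bp fragment held 1140 reads, and the 34 of 36 unique ends with a read within 5 kb held a median of 90.5 and up to 1573. A multiplicity of 48 was listed for the end at 94880913, which held 1636 reads beside 351 on the unique end of the same fragment. The end at 94868065 had the highest multiplicity in the file, 50, and 1019 reads, with 1553 on its unique partner. The ends of multiplicity 48 and 50 thus held fewer reads than the highest unique ends within 5 kb (2225 and 1582 reads), and the end of multiplicity 15 held more. Further ends lay closer in, at 94731745 (multiplicity 7, 1821 reads, partner 1779) and at 94755505 (multiplicity 2, 1638 reads, partner 2116). The remaining 5 of Jun, at 94894321, 94762369, 94745441, 94882849 and 94732145, had multiplicities of 2 to 13.

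For Ccl2, the end with the most reads had its fragment centre at 81979329 of chromosome 11, 131 kb from the viewpoint, with a multiplicity of 2 and 1320 reads. It stood above all 33 unique ends within 5 kb, the highest of which held 702 reads, and the unique end of its 630 bp fragment held 32. The end at 81864801, 16.6 kb away, held 1285 reads at multiplicity 2 beside 820 on its partner. That at 81906385 held 1189 at multiplicity 4 beside 1667. The end at 81958977, 111 kb away, had a multiplicity of 38 and 739 reads, above the highest unique end within 5 kb (555 reads), with 409 on its partner. This was the only multiplicity above 10 among the 10 Ccl2 ends, which were chosen by their reads. A site of the second cutter lay in 8 of the 10 fragments. From 5 kb to 1 Mb, 37.5%, 39.2% and 40.7% of Ccl2 ends of multiplicity 2, 3 to 10 and above 10 lay on such a fragment, against 41.1% of unique ends. The other 6, at 81859217, 81914897, 81885137, 81870673, 81974897 and 81943057, had multiplicities of 2 to 7.

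Fragments with 1 multi-copy and 1 unique end allowed a comparison at equal position and length. Within 1 Mb, 45.8% of the multi-copy ends (41.2 to 50.4%) and 43.8% of the unique ends (39.2 to 48.5%) of 461 such Jun fragments had a read, and 22.4% (18.7 to 26.4%) and 19.0% (15.6 to 22.8%) of 478 Ccl2 fragments. Where the multi-copy end of a Jun fragment had a read, its unique partner had one in 83.4% of cases, and in 10.4% where it had none. Between the ends of wholly unique fragments of Jun they were 84.9% and 15.3%. For Ccl2 they were 47.7% and 10.8%, against 57.4% and 11.9% in wholly unique fragments. Of the 176 Jun fragments with reads on both ends the multi-copy end held more in 79, and of 51 for Ccl2 in 33.

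Beyond 1 Mb few fragments of either kind had a read on both ends. In 34358 Ccl2 fragments 1187 had a read on the multi-copy end only, 509 on the unique end only and 46 on both. In 42017 Jun fragments the numbers were 1178, 502 and 31. Where the multi-copy end had a read, its unique partner had one in 3.73% of cases for Ccl2 and 2.56% for Jun, against 4.47% and 3.03% between the ends of wholly unique fragments, of which 116 and 73 had a read on both. The shares were 3.59% (3.39 to 3.79%) against 1.62% (1.48 to 1.75%) for Ccl2 and 2.88% (2.72 to 3.04%) against 1.27% (1.16 to 1.38%) for Jun. The sums of reads were closer, with 36539 reads on multi-copy ends and 37960 on their unique partners for Ccl2 and 19696 and 21128 for Jun. At 50 reads or more, 250 multi-copy and 255 unique ends stood in the Ccl2 fragments, and 114 and 176 in the Jun fragments.

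Fragments of multi-copy ends were somewhat shorter than those of unique ends, and beyond 1 Mb held a site of the second cutter about as often. Over all ends from 5 kb outward the median length was 280, 262 and 255 bp for multiplicity 2, 3 to 10 and above 10 in the Ccl2 file, against 301 bp for unique ends. In the Jun file it was 275, 259 and 242 bp, against 306 bp. Within 1 Mb the medians were 258, 222 and 267 bp against 278 bp for Ccl2, and 303, 307.5 and 226.5 bp against 311 bp for Jun. Of the ends beyond 1 Mb, 44.5%, 43.4% and 44.7% of the Ccl2 ends lay on a fragment that holds a site of the second cutter, against 45.0% of unique ends, and for Jun 44.1%, 42.6% and 42.8%, against 45.6%. With a site, 7.21% of the Ccl2 ends above multiplicity 10 had a read (6.65 to 7.81%) and without one 4.67% (4.26 to 5.11%). On unique ends these shares were 2.41% (2.35 to 2.49%) and 0.834% (0.797 to 0.872%). For Jun they were 5.94% and 3.77% above multiplicity 10, against 1.80% and 0.680% on unique ends. A fragment without such a site had a read less often in both kinds of end, and the ratio between the 2 states was 1.54 for the Ccl2 ends above multiplicity 10 against 2.89 for unique ends, and 1.58 against 2.65 for Jun.

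Multi-copy ends were unevenly spread along the chromosomes. Bins of 1 Mb held a median of 518 on chromosome 11 (148 to 1182) and of 515 on chromosome 4 (220 to 3547). In 7 bins of chromosome 4, but in none of chromosome 11, they outnumbered unique ends, and these 7 held 20.0% of the multi-copy ends of Jun. Of their ends 2.56% had a read, against 2.62% of all multi-copy ends beyond 10 Mb, and the mean was 0.185 reads per end, against 0.308. The densest was 42000001 to 43000000 with 3547 multi-copy and 528 unique ends (1.18% and 0.947% with a read). It was followed by 60000001 to 61000000 (3190 ends, 3.54% with a read, against 0.457% or 1 of 219 unique ends). Next was 146000001 to 147000000 (2935, 3.75%, against 0.593% or 3 of 506). In 145000001 to 146000000 (2931 ends) 123 had a read, against 2.05% or 9 of 439 unique ends. Last came 143000001 to 144000000 (2585, 1.01%, against 0.845% or 14 of 1657). On chromosome 11 the densest were 27000001 to 28000000 (1182 ends, 1.18% with a read, against 0.266% of unique ends) and 48000001 to 49000000 (981, 9.38% against 2.09%). Then came 73000001 to 74000000 (912, 3.51% against 1.21%), 60000001 to 61000000 (900, 4.11% against 1.23%) and 49000001 to 50000000 (890, 5.39% against 3.23%). Over the far bins described next, the number of multi-copy ends and the share with a read had a Spearman correlation of 0.10 for Ccl2 and -0.13 for Jun.

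Far bins with a high share of multi-copy ends with a read tended to have a high share of unique ends with one. Over 116 bins of Ccl2 and 150 of Jun at 1 Mb or more from the viewpoint with at least 100 ends of either kind, the share of multi-copy ends with a read had a Spearman correlation of 0.76 and 0.78 and a Pearson correlation of 0.77 and 0.80 with that of unique ends. Bins of a library share its depth and its fall with distance, so these are descriptions with no test. The multi-copy share was the higher in 111 and 147 of the bins. Its median was 3.32% against 1.41% for Ccl2 and 2.62% against 0.966% for Jun.

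The highest far share of Ccl2, 10.0% of 540 multi-copy ends (7.60 to 12.8%) against 5.31% of 3731 unique ends (4.61 to 6.08%), lay at 83000001 to 84000000, centred 1.65 Mb from the viewpoint. The next, 48000001 to 49000000, was 33.3 Mb away on the lower side, with 9.38% (7.63 to 11.4%) against 2.09% (1.61 to 2.66%) and a mean of 2.77 against 1.74 reads per end. Next came 88000001 to 89000000, with 7.82% of 435 ends against 3.63%. For Jun the 3 highest were 88000001 to 89000000 (9.95% of 814, 7.98 to 12.2%, against 3.38% of 2928, 2.76 to 4.10%), 98000001 to 99000000 (7.99% of 438 against 4.06%) and 59000001 to 60000000 (6.90% of 522 against 3.26%). The bin at 48000001 was 1 of the 5 densest of chromosome 11 and among its 3 highest shares.

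**Figure D4:**
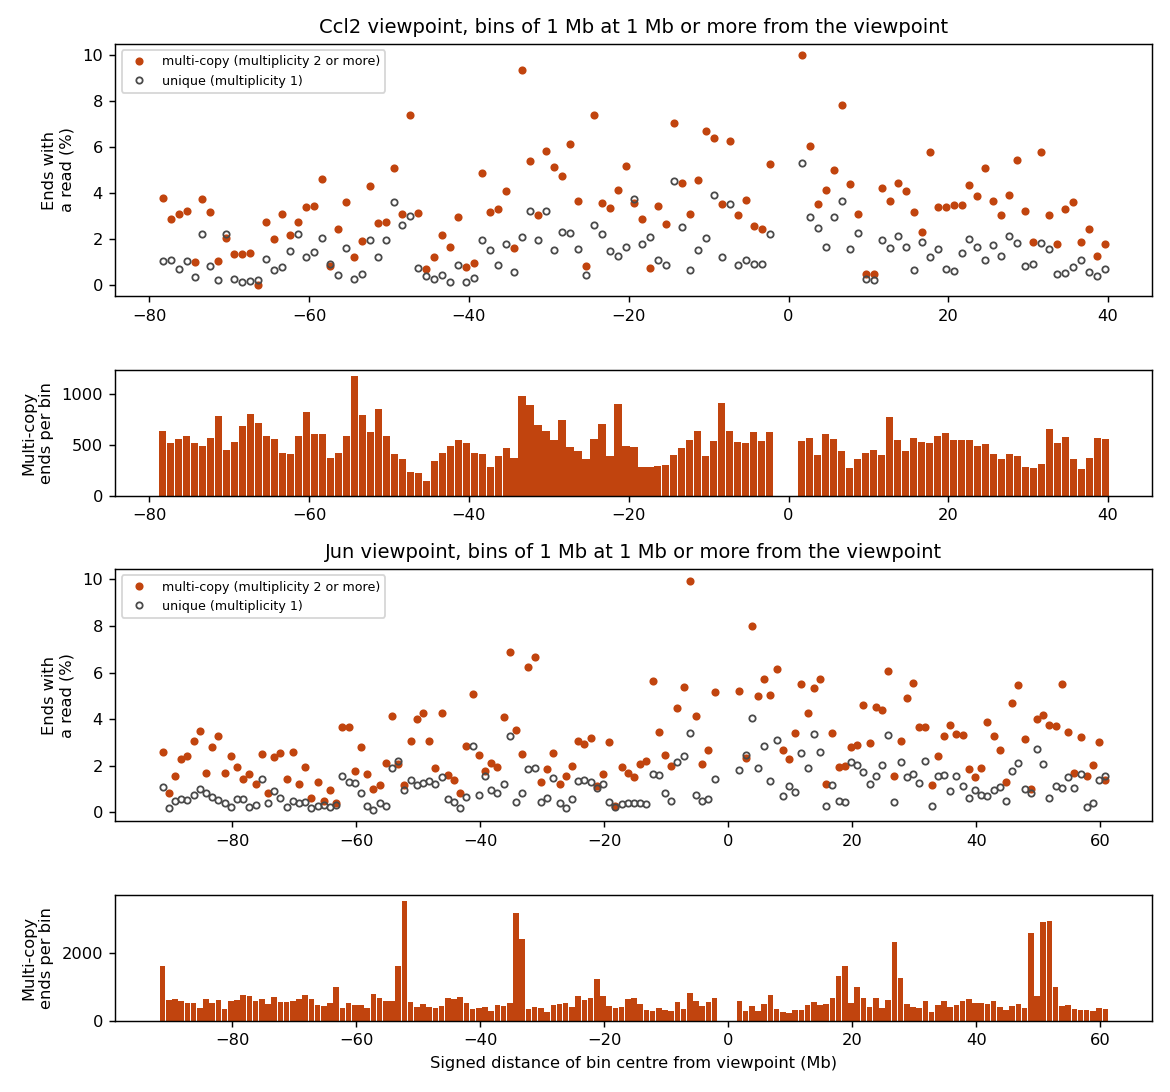
Percentage of fragment ends with a read per 1 Mb bin, multi-copy ends filled and unique ends open, and below it the number of multi-copy ends per bin, by signed distance of the bin centre from the viewpoint (Mb), for bins at 1 Mb or more with at least 100 multi-copy ends. Multi-copy shares stand above unique shares in 111 of 116 Ccl2 bins and 147 of 150 Jun bins, and the densest bins of Jun are not those with the highest shares.

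In dense stretches of chromosome 4, ends of the same multiplicity often held the same value. Among multi-copy ends of Jun just above 1 read or higher, 321 of 2366 fell into 62 sets of equal multiplicity and equal value (relative tolerance 1e-05), and in 24 sets the number of ends equalled the multiplicity. One set of 16 ends with multiplicity 16 spanned 1455 kb from 60074689 to 61529921, at 1.39 reads each. Another of 10 ends with multiplicity 10 lay from 60067681 to 61420593, at 5.62 reads each. A further set of 5 ends with multiplicity 5 lay from 145343793 to 146484465, at 15.1 reads each. Of the 62 sets, 56 spanned under 3 Mb.

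For Ccl2 8 of 1845 multi-copy ends fell into 3 sets, in all of which the number of ends equalled the multiplicity. One held 4 ends within 480 bp, from 74388625 to 74389105 of chromosome 11, at 107 reads each. Unique ends held equal values too, 543 of 7702 for Ccl2 and 837 of 9027 for Jun, but 17 of their 248 sets and 53 of 371 spanned under 3 Mb. The number of ends with a given multiplicity was no multiple of it for 45 of 49 multiplicities in the Ccl2 file and 43 of 49 in the Jun file, so copies among the listed ends of the viewpoint chromosome alone do not make up the multiplicity.

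Adding the multi-copy ends to the unique ones changed the profiles as follows. The share of reads within 100 kb of the viewpoint was 36.6% with them for Ccl2 and 21.9% for Jun, against 38.6% and 22.5% on unique ends only. Within 1 Mb it was 49.1% and 77.2%, against 50.9% and 78.3%. On the multi-copy ends alone these shares were 15.5% within 100 kb and 30.5% within 1 Mb for Ccl2, and 14.7% and 65.3% for Jun. At the inner limit of 5 kb, the nearest multi-copy ends kept lay 8.85 kb (111 reads) and 9.78 kb (11 reads) from the Ccl2 viewpoint and 8.54 kb (171 reads) and 9.02 kb (34 reads) from that of Jun. Those left out were 2 for Ccl2, at 3.504 and 3.904 kb with 121 and 117 reads, and 1 for Jun, at 0.4 kb with 0 reads. The 10 nearest multi-copy ends with a read on each side lay within 54.3 kb on the lower and 41.6 kb on the higher side of Ccl2, among 12 and 10 multi-copy ends, and within 44.6 and 41.3 kb of Jun, among 13 and 10.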

How the data were processed

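The authors deposited estimated counts of reads for the 3′ and 5′ end of each DpnII fragment, unscaled to depth, a unit read here from the values. The submitters' processing notes name mm9, and neither aligner nor read weighting was stated. Per the file headers each end also has a multiplicity, read here as the number of places with its sequence, beside fragment length and the distance to the second cutter in 16 bp bins. A fragment was taken to hold a second-cutter site when that distance was below its length.

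Values were rounded to whole reads, and an end with 1 read or more was covered. All ends together held 1334010 reads (Ccl2) and 1752662 reads (Jun), with 258628 and 462999 on the end next to the viewpoint, whose fragment centre set the viewpoint position. Shares got exact binomial, read sums exact Poisson and ratios of shares Katz log intervals, at 95%, in Python 3.11.15 with pandas 2.3.3 and scipy 1.17.1. No samples were tested against each other, as there was 1 library per viewpoint. The code was checked on simulated data. Alternatives changed the read threshold, rounding, inner limit, fragment length, highest ends, repeated values and matching of unique ends. Members and lists were chosen with earlier results of these data known. Named are the 10 multi-copy ends with the most reads, the 5 bins with the most multi-copy ends and the 3 far bins with the highest share with a read. The sets of equal values and the mean reads per end were added after the values were seen.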

Additional observations from a re-analysis of the deposited data

Results flagged for a closer look

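The covered share of multi-copy ends from 20 to 1000 kb stood on opposite sides of that of unique ends in the libraries, at 1.19 times the unique share for Ccl2 and 0.827 times for Jun. This difference was not tested, as each viewpoint had 1 library, and for Jun 467 of 753 multi-copy ends lay on the lower side. For Ccl2 473 of 754 lay on the higher, more contacted side, and the ratio was 1.10 with unique ends matched by distance and side. The Jun ratio was 1.01 with unique ends matched by distance and side and 1.06 within the same fragments, so its direction did not hold under these alternatives. Multi-copy ends closer than 5 kb to the Ccl2 viewpoint, which entered no comparison, held 238 reads on 2 ends.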

How the results depend on the processing

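No paired analysis was possible because each viewpoint had 1 library. Of 83 values recomputed for 10 results, 39 stayed within the counting interval of the reported value, 38 moved beyond it and 6 changed direction. Some of the 39 could not change, so their number is no measure of robustness. An inner limit of 10 kb removes no end from the ratios from 20 to 1000 kb or beyond 1 Mb. The 10 highest ends of each kind all lay within 1 Mb, so leaving them out cannot alter the far ratios. The share of multi-copy ends with a read, 3.90% for Ccl2 and 3.14% for Jun, was 2.82% and 2.15% from 2 reads, 1.80% and 1.12% from 10 reads, 29.7% and 27.0% with any value above 0, 4.28% and 3.44% on fragments of at least 100 bp, and 5.12% and 4.11% on fragments with a second-cutter site. For Jun it was 3.29% without the bins in which multi-copy ends outnumber unique ends. The far ratio of shares, 2.37 and 2.38, was 1.78 and 1.68 from 2 reads, 1.31 and 0.948 from 10 reads, 0.890 and 0.477 from 50 reads, 12.0 and 11.6 with any value above 0, 2.22 and 2.27 within the same fragments, and 1.99 and 2.06 with a second-cutter site. Its direction thus depends on the read threshold. From 20 to 1000 kb the ratio, 1.19 and 0.827, was 1.94 and 1.07 with any value above 0, and for Jun 1.01 with unique ends matched by distance and side and 1.06 within the same fragments. The share of reads on multi-copy ends, 8.60% and 8.39%, was 8.54% and 8.32% from 2 reads, 8.33% and 8.03% from 10 reads, 9.32% and 8.68% with the inner limit at 10 kb, 8.35% and 8.26% on fragments of at least 100 bp, and 8.16% and 7.47% without the 10 highest ends of each kind. The far ratio of mean reads, 0.915 and 0.732, was 0.898 and 0.751 with matched unique ends, 0.965 and 0.936 within the same fragments, and 0.821 and 0.667 with a second-cutter site, and for Jun 0.816 without the dense bins. The second-cutter, dense-bin and 50-read settings and all those of mean reads were chosen after seeing the data. Apart from the matching and the thresholds themselves, the cause of these shifts was not tested.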
